A study of Homo sapiens with 6 samples.

Results

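Genes of the CDK inhibitor families were followed in the human colorectal carcinoma cell line HCT116, with and without oxaliplatin, a platinum compound that binds DNA. The genes were CDKN1A, CDKN1B and CDKN1C of the CIP/KIP family, CDKN2A, CDKN2B, CDKN2C and CDKN2D of the INK4 family, and CDKN3, a phosphatase gene that shares the CDKN name. They were taken from the table by symbol and are 8 of the 27942 genes of the count table. Total RNA came from cells left untreated (NT) or given 0.5 µM oxaliplatin for 24 h (OXA), with 3 libraries in each group. No engineered allele or other agent is named for either group, and 1 medium with serum is given for both. The labels list penicillin and streptomycin in it, whereas the study's methods state that antibiotics were left out. Neither the labels nor the methods say that the libraries of a group came from separate cultures, so the p-values measure the spread between these libraries, which may be technical, and all values describe 1 cell line at 1 dose and 1 time.

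Cyclin-dependent kinases (CDKs) drive the cell cycle when a cyclin is bound to them. INK4 proteins bind CDK4 and CDK6 and keep D-type cyclins from activating them, whereas CIP/KIP proteins bind complexes of cyclins with CDKs more broadly and are best known for blocking CDK2. With the kinases held off, the retinoblastoma protein and its relatives stay bound to E2F factors and genes of S phase stay off.

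Oxaliplatin-treated cells differed from untreated cells in 1 member of these families by the unpaired comparison, which called 5.07% of all genes tested. CDKN1A, which encodes p21, was 7.60-fold higher in OXA, and the other 7 genes did not pass the test. CDKN1B, which encodes p27, passed as lower once libraries with the same replicate number were paired, a comparison that called 23.0% of all genes. No INK4 gene passed in either comparison, and their 95% intervals reached from a log2 fold change of -0.61 to 0.54.

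Sequence near the start sites is shown first because CDKN1A, CDKN1B and CDKN3 had the smallest p-values of the 8 genes. Promoter windows of RefSeq (GRCh38.p14, 250 bases before and 50 after a start site) were available for 7 of the 8, all but CDKN1C. The 3 genes differed in the short motifs given here, which were searched on both strands of the 300-base windows. A further motif that was searched is not reported here. The SP1 box was searched as GGGCGG. The E2F site, bound by the factors that switch on S phase genes, was searched in the form TTCCCGC, in a variant whose letters are TTGGCGC, and in a further variant that reads TTCGCGC. The CHR element, a motif of many cell cycle genes, was searched as TTTGAA. The CDKN1A window held 4 SP1 boxes, of which 2 overlap, and the CDKN1B window held 1. The CDKN3 window held none but held 1 CHR element on the reverse strand, at -170. None of these 3 windows held an E2F site. Many SP1 boxes were not particular to CDKN1A, since a window of the uncalled CDKN2C held 6, with 2 E2F sites. The other INK4 windows held from 0 to 3 SP1 boxes. Of all 35116 windows, 44.95% held an SP1 box, 15.2% a CHR element and 11.03% one of the E2F sites, and a match describes letters and not a bound site. The sequences below are the longest stretches of the 250 bases before each start that lie outside annotated exons, with these motifs in capitals.
CDKN1A (chr6:36678560-36678709, plus strand): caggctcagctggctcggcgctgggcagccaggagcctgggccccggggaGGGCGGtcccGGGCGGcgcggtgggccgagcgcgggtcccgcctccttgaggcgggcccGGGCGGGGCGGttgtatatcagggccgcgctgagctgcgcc
CDKN1B (chr12:12717118-12717367, plus strand): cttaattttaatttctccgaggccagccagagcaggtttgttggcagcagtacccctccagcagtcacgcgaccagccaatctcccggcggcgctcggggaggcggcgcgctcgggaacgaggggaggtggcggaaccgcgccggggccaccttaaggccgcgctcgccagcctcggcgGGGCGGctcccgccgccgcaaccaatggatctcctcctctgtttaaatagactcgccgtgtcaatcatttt
CDKN3 (chr14:54396757-54396848, plus strand): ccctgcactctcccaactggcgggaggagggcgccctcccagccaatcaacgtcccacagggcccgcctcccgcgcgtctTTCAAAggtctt

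Values below are TMM-normalized counts, which put the deposited raw counts of the libraries on 1 scale, and fold changes are OXA over NT. The quasi-likelihood test of edgeR was run over 13727 genes, and a gene is called at a Benjamini-Hochberg adjusted p under 0.05. Raw totals lay between 32979521 and 40967880 counts per library. NT library 1 stood furthest from the others of its group (chi-square per gene 79.1 and 72.0 against NT libraries 2 and 3, and between 18.3 and 28.1 for the other pairs), so results are also given without it. Of 7 markers of colon epithelium, the origin of the line, 6 passed 3 counts in at least 1 library, whereas CDX1 had 3 counts or fewer in each. All 3 endothelial markers passed this low floor too, so the floor alone does not tell cell types apart. The summed epithelial markers ranged from 70887 to 95486 normalized counts in NT and from 100851 to 113137 in OXA, and their part in the results was not tested. The leukocyte markers PTPRC, CD3E and CD14, and the fibroblast markers COL1A2, DCN and LUM, had 3 counts or fewer in each library. Summed over each list, leukocyte markers reached at most 8.18 normalized counts, endothelial markers 28.5 and fibroblast markers 291.

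CDKN1A (ENSG00000124762, chr6:36676460-36687337, plus strand) had 4235, 5143 and 6050 normalized counts in NT libraries 1 to 3. The OXA libraries had 40181, 41316 and 35832. Every OXA library thus lay far above every NT library, and the spread within a group was small beside the difference. The means were 5143 ± 907 in NT and 39109.9 ± 2895 in OXA (SD, n = 3). The fold change was 7.60, with a 95% interval from 5.997 to 9.64 (edgeR adjusted p = 0.000445), and its p-value was the smallest of all 13727 genes tested. Only 10 tested genes, all of them called, had a larger log2 fold change. The log2 ratios of the same-numbered pairs were 3.25, 3.01 and 2.57. Without NT library 1 the log2 fold change was 2.80 in place of 2.93 (edgeR adjusted p = 2.1e-05). CDKN1A was called under all 11 alternatives tried, at log2 fold changes between 2.80 and 3.03. In bulk RNA, more cells with the transcript and more transcript per cell cannot be told apart.

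CDKN1B (ENSG00000111276, chr12:12685498-12722369, plus strand) encodes p27, which restrains CDK2 in resting cells. It had 1001, 1029 and 1091 normalized counts in NT, and 757, 838 and 928 in OXA. All OXA libraries lay below all NT libraries, and each same-numbered pair was lower in OXA, with log2 ratios of -0.40, -0.30 and -0.23. The log2 fold change was -0.31 (standard error 0.11, 95% interval -0.57 to -0.046), and the gene was not called (edgeR adjusted p = 0.165). When the fit took replicate numbers as blocks, the estimate was again -0.31 (standard error 0.072) and CDKN1B was called (edgeR adjusted p = 0.0319). That fit called 23.0% of all genes tested. Groups without overlap were found in 28.9% of all genes tested, so the separation of 3 libraries against 3 was common in this table. Without NT library 1 the unpaired estimate was -0.33 (edgeR adjusted p = 0.105). GPR19, a receptor gene on the opposite strand, overlaps the extent of CDKN1B in the annotation but not its exons. GPR19 had an estimate of -1.18 on the log2 scale without a call (edgeR adjusted p = 0.104), and passed with the block (edgeR adjusted p = 0.0388).

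CDKN1C (ENSG00000129757, chr11:2883213-2885775, minus strand), the imprinted gene of p57, was the least abundant of the 8 genes. Its NT libraries had 105, 98.7 and 111 normalized counts and its OXA libraries 92.0, 113 and 69.5. The groups overlapped, with the lowest and the highest value both in OXA. The log2 fold change was -0.20 (95% interval -0.71 to 0.31, edgeR adjusted p = 0.652), an interval that holds changes of moderate size in either direction.

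**Figure D1:**
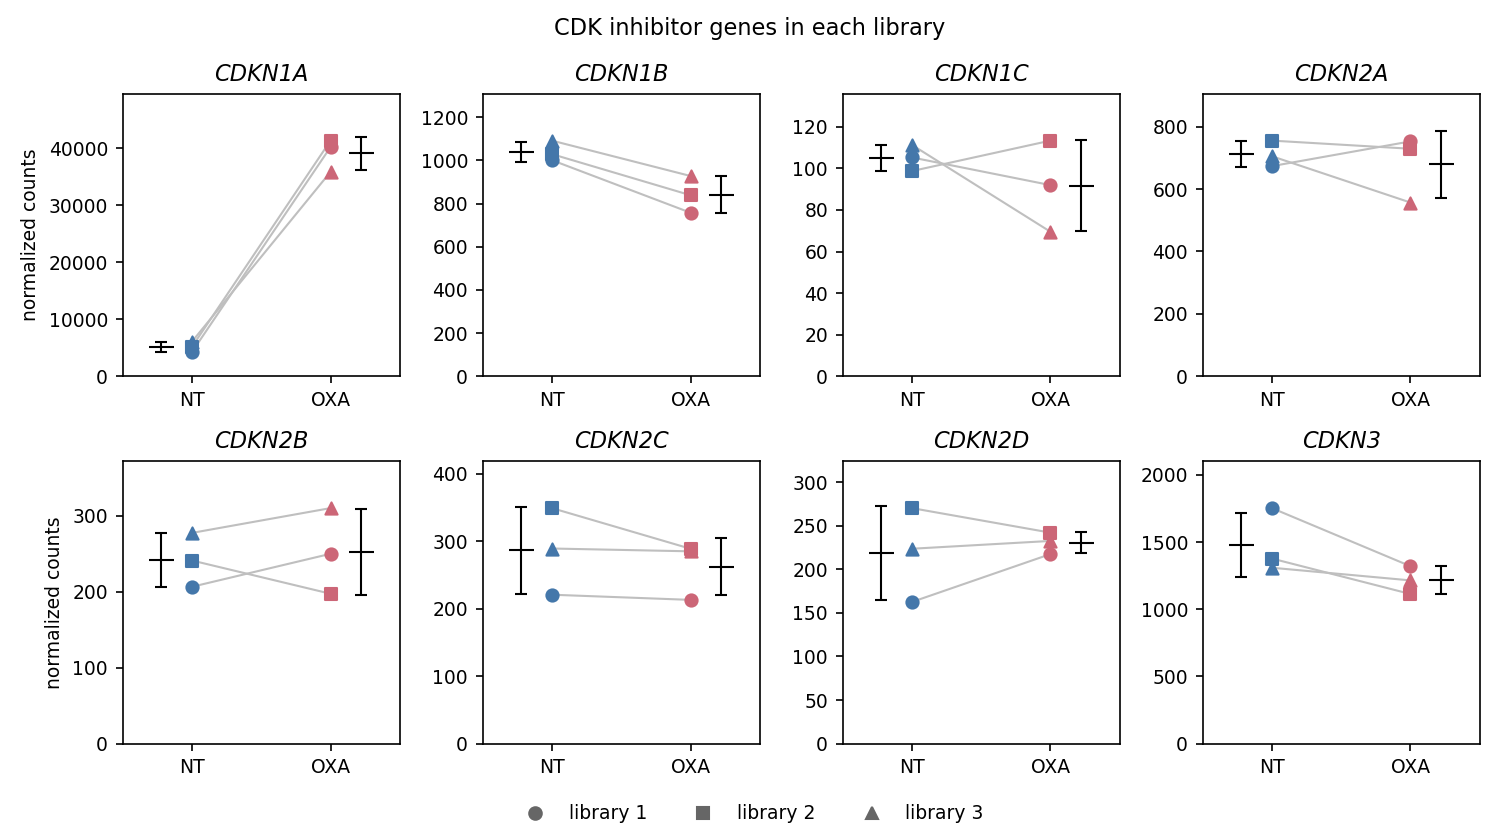
TMM-normalized counts of each of the 8 genes in the 6 libraries (a panel for each gene, linear axis), with 1 point for each NT or OXA library and the mean of each group. The 3 OXA points of CDKN1A, from 35832 to 41316, stand apart from NT points of 4235 to 6050, and those of CDKN1B lie just below their NT points, whereas the points of the other 6 genes overlap.

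Among the INK4 genes, no member was called, with or without the block. CDKN2A (ENSG00000147889, chr9:21967752-21995301, minus strand) encodes p16INK4a and, from another first exon and reading frame, p14ARF. Counts per gene do not separate these transcripts. It had 674, 756 and 705 normalized counts in NT and 753, 729 and 557 in OXA, so that only OXA library 3 fell outside the NT range. The log2 fold change was -0.067 (95% interval -0.40 to 0.26, edgeR adjusted p = 0.832), and it turned to 0.028 without OXA library 3.

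CDKN2B (ENSG00000147883, chr9:22002903-22009305, minus strand) lies 7602 bases from CDKN2A and encodes p15INK4b, known as an effector of TGF-beta. It had 206, 241 and 277 normalized counts in NT and 249.9, 197 and 310.1 in OXA. The OXA libraries held both the lowest and the highest of the 6 values. The log2 fold change was 0.064 (95% interval -0.41 to 0.54, edgeR adjusted p = 0.893), and it was -0.036 without NT library 1 and -0.14 without OXA library 3. The 2 genes of the locus therefore had estimates near 0 whose signs rested on single libraries.

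CDKN2C (ENSG00000123080, chr1:50960745-50974634, plus strand), the gene of p18INK4c, had 221, 349 and 289 normalized counts in NT and 213, 289 and 285 in OXA. CDKN2D (ENSG00000129355, chr19:10566460-10569059, minus strand), the gene of p19INK4d, had 163, 270.2 and 224 in NT and 217, 242 and 233 in OXA. In both genes NT library 1 was the lowest NT library, and the groups overlapped. The log2 fold change was -0.13 for CDKN2C (95% interval -0.61 to 0.36, edgeR adjusted p = 0.785) and 0.077 for CDKN2D (95% interval -0.39 to 0.54, edgeR adjusted p = 0.869). Without NT library 1 they were -0.28 and -0.096, again without a call. The sign of CDKN2C also turned without NT library 2 (0.013) or OXA library 1 (0.0033).

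CDKN3 (ENSG00000100526, chr14:54396849-54420218, plus strand) encodes a phosphatase that removes the activating phosphate from CDK2 and is itself a gene of proliferating cells. It had 1752, 1377 and 1309 normalized counts in NT and 1320, 1113 and 1214 in OXA. The groups overlapped by a narrow margin, since OXA library 1 lay above NT library 3, while each same-numbered pair was lower in OXA (log2 ratios -0.41, -0.31 and -0.11). The log2 fold change was -0.28 (95% interval -0.60 to 0.036, edgeR adjusted p = 0.283). With the block it was -0.27 and remained just outside the threshold (edgeR adjusted p = 0.0558). Without NT library 1, the highest of the 6, it was -0.14 (edgeR adjusted p = 0.445).

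Of the 8 genes, 1 was called, where 5.07% of all genes tested were called. The block called 2 of the 8 against 23.0% of all genes. An unadjusted p under 0.05 was reached by 2 of the 8, CDKN1A and CDKN1B, against 21.7% of all genes, and the same 2 were the ones whose groups did not overlap, against 28.9%. By estimate 5 were lower and 3 higher in OXA, beside a median log2 fold change of 0.023 over all genes. Over 8 genes these counts were near the background shares.

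**Figure D2:**
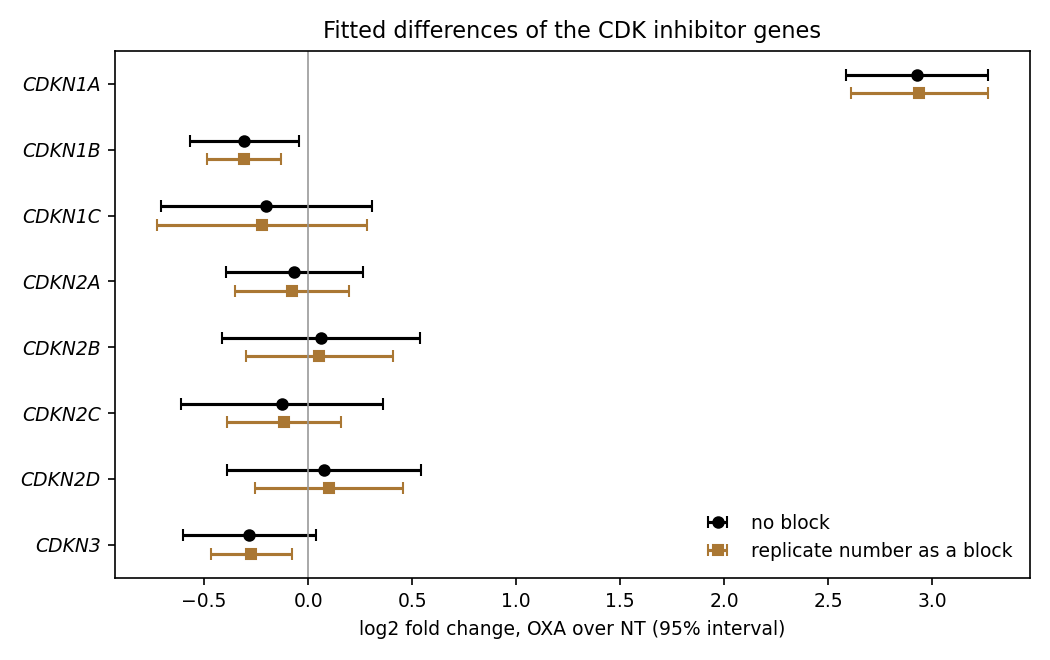
Log2 fold change (OXA over NT) of each of the 8 genes with its 95% interval, from the edgeR fits that leave out or include replicate blocks. CDKN1A is at 2.93 without and 2.94 with the block, the intervals of CDKN1B lie below 0 in both fits, and those of CDKN1C and the INK4 genes span 0 in both.

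Levels between genes were compared per kilobase of annotated exon, as TMM-normalized CPM per kilobase (mean ± SD, n = 3). In untreated cells CDKN1A already had the highest level of the 8 genes, 47.7 ± 8.42, followed by CDKN3 at 22.5 ± 3.63. The INK4 genes lay between 5.09 ± 0.295 for CDKN2A and 1.68 ± 0.246 for CDKN2B, with CDKN2D at 4.04 ± 0.997 and CDKN2C at 2.64 ± 0.592. CDKN1B had a level of 3.12 ± 0.139 and CDKN1C one of 1.18 ± 0.0707. In this order the neighbours CDKN2A and CDKN2D, CDKN2D and CDKN1B, and CDKN1B and CDKN2C overlapped between libraries, and the other neighbours did not.

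In OXA the order by mean was the same. The level of CDKN1A was 363 ± 26.9 and that of CDKN3 18.5 ± 1.57. The rank of CDKN1A among all genes with a level moved from between 622 and 979 in NT to between 64 and 79 in OXA. Below them came CDKN2A at 4.86 ± 0.766, CDKN2D at 4.26 ± 0.229, CDKN1B at 2.53 ± 0.256, CDKN2C at 2.42 ± 0.393, CDKN2B at 1.75 ± 0.392 and CDKN1C at 1.03 ± 0.246. Neighbours that overlapped were CDKN2A and CDKN2D, CDKN1B and CDKN2C, and CDKN2C and CDKN2B. With the length of the longest transcript in place of all exons, CDKN2A rose to 18.8 and CDKN1B to 6.67 in NT, which puts CDKN1B above CDKN2D, so levels between genes depend on the length used.

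Summed over the 7 CIP/KIP and INK4 genes, the level was 65.5 ± 9.94 in NT and 379.6 ± 27.2 in OXA. CDKN1A made up 72.7% ± 2.36 of this sum in NT and 95.6% ± 0.282 in OXA. The sum of the other 6 genes was 17.7 ± 2.06 in NT and 16.8 ± 0.584 in OXA, and the libraries overlapped. The INK4 sum was 13.4 ± 2.02 and 13.3 ± 0.370. The pool of inhibitor transcripts was thus mostly CDKN1A in both states, and in OXA almost wholly so. These sums and shares rest on the length of all annotated exons and depend on it. By the longest transcript, NT levels were 63.0 for CDKN1A and 18.8 for CDKN2A, and the shares were not computed. CDKN1A took 1.45 ± 0.258 of every 10000 counts in NT and 10.7 ± 0.845 in OXA.

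**Figure D3:**
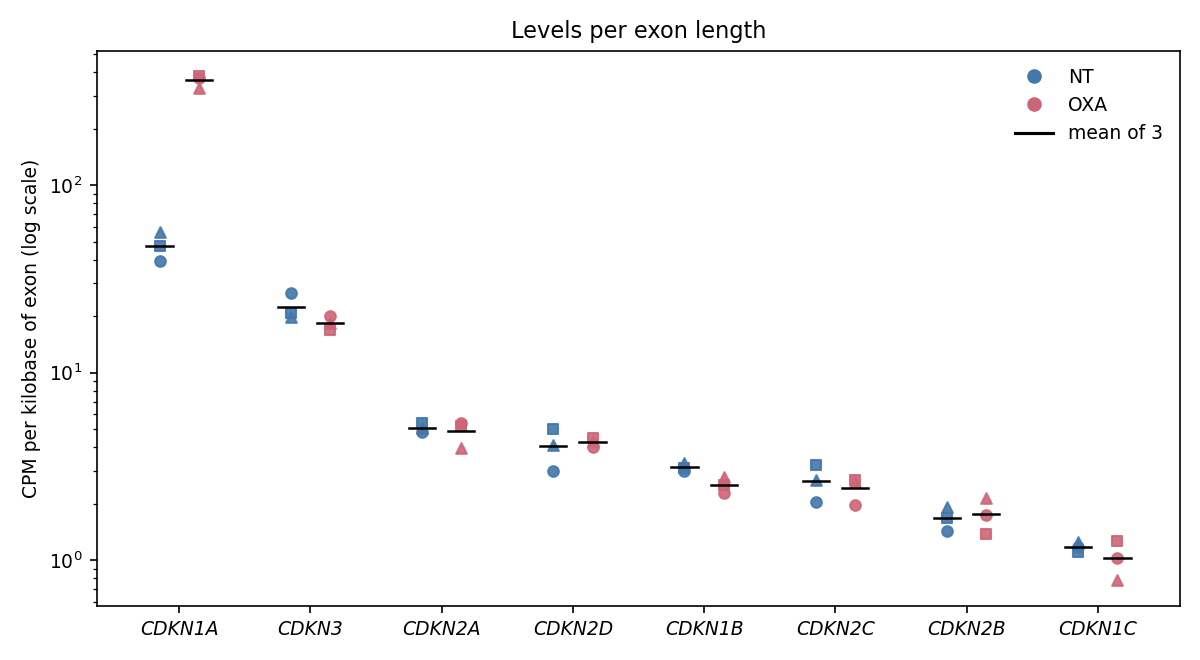
Level of each of the 8 genes in CPM per kilobase of annotated exon (log axis), with 1 point per library and the mean of each group. CDKN1A goes from 47.7 in NT to 363 in OXA, while the means of the other 7 genes lie between 1.03 and 22.5 in both groups.

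Genes close to CDKN1A across the 6 libraries were found by the root mean square difference of their centred log2 CPM. TP53I3, which encodes an oxidoreductase, was nearest (difference 0.117), with 178, 248 and 302 normalized counts in NT and 1714, 1705 and 1769 in OXA. PLA2G4D, a phospholipase gene (difference 0.231), had at most 2.08 normalized counts in an NT library and from 19.5 to 33.8 in OXA. Both were picked for their likeness to CDKN1A over these same libraries, so their difference between the groups follows from the choice. For CDKN1B the nearest were CDK19, CRTC3 and PDLIM3 (difference 0.040 each), none of them called without the block.

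By edgeR, the genes around the members gave no call without the block. Within 100 kb of a member lay 32 other genes of the table, of which 24 were tested. Of these, edgeR called 0, where it called 5.07% of all genes. Of the 24, 6 had an unadjusted p under 0.05, against 21.7% of all genes. DESeq2, also run without the block, called 3 of the 24, where it called 1268 of the 13727 genes tested. The block called 8, against 23.0% of all genes, with DDX47, PHLDA2 and KRI1 higher and SRSF3, GPR19, KCNQ1, MTAP and CNIH1 lower in OXA, which were named after their values were seen. Beside CDKN1A, the antisense non-coding RNA gene PANDAR had 1 raw count in NT library 2 and 0 in the other 5 libraries.

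Of 13 genes of the kinases and cyclins that these inhibitors bind, 11 were tested, and 1 was called higher and 1 lower (5.07% of all genes were called). The other 9 did not pass, and the list had a median log2 fold change of -0.15 against 0.023 over all genes. CCND1, the gene of cyclin D1, which CDK4 and CDK6 need, rose from 16283, 18199 and 17935 normalized counts in NT to 27684, 28439.7 and 27672 in OXA (log2 fold change 0.68, edgeR adjusted p = 0.00768). CCNE2, a gene of cyclin E, the partner of CDK2, fell from 1471, 1168 and 1316 to 598, 506 and 647 (log2 fold change -1.17, edgeR adjusted p = 0.00615). In CCND1 and CCNE2 the groups were fully apart. CCNE1, the other cyclin E gene, was at -0.085 on the log2 scale (edgeR adjusted p = 0.717) and was not called with the block either. The direct INK4 targets were not called without the block, CDK4 being at 0.034 (edgeR adjusted p = 0.897) and CDK6 at 0.41 (edgeR adjusted p = 0.0697) on the log2 scale. With the block, which called 23.0% of all genes, CDK6 was called higher and CDK1, CDK2, CCNA2 and CCNB2 lower, at log2 fold changes between -0.39 and -0.24 for these 4. CCNA1 and CCND2 had no count in any library.

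The E2F side of the pathway held 3 called genes, all lower in OXA, among 10 tested, where 5.07% of all genes were called. The median log2 fold change of the list was -0.13, against 0.023 over all genes. E2F1, an activating E2F factor, fell from 924, 1206 and 1122 normalized counts to 441, 529 and 544 (log2 fold change -1.10, edgeR adjusted p = 0.00858). E2F2 fell from 1527, 1885 and 1855 to 788, 864 and 1035 (log2 fold change -0.97, edgeR adjusted p = 0.0115). RBL1, which encodes the pocket protein p107, fell from 1886, 1619 and 1686 to 1029, 894 and 1070.1 (log2 fold change -0.79, edgeR adjusted p = 0.0112). In these 3 genes no OXA library reached the NT range. RB1 itself differed by 0.049 on the log2 scale (edgeR adjusted p = 0.861), and the block added no call in this list.

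Among 14 genes for the turnover of CIP/KIP proteins, 1 was called, lower in OXA, a share near the 5.07% of all genes. The list median was 0.051, against 0.023 over all genes. The called gene was DTL, the adaptor through which the CUL4 ligase marks p21 for degradation, which fell from 4821, 3718 and 3725 normalized counts to 2255, 1819.7 and 2204 (log2 fold change -0.97, edgeR adjusted p = 0.0112). SKP2, the adaptor that marks p27, had an estimate of -0.45 on the log2 scale (edgeR adjusted p = 0.0516), and with the block it was called (edgeR adjusted p = 0.00853). DDB1 was called higher with the block (edgeR adjusted p = 0.0415), which in all called 3 of the 14 against 23.0% of all genes. These are transcript levels, and the abundance of p21 and p27 proteins was not measured in these libraries.

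Of 23 transcription factors and repressors known to act on inhibitor genes, 22 were tested and 1 was called, higher in OXA, which is no more than the 5.07% called over all genes. The list median was -0.094, against 0.023 over all genes. SMAD3, a mediator of TGF-beta signals, rose from 3278, 3431 and 3217 normalized counts to 4723, 4583 and 4406 (log2 fold change 0.47, edgeR adjusted p = 0.0209). TP63 had at most 3 raw counts in a library and was not tested. With the block 5 were called higher (SMAD3, MYC, KLF4, ID1 and ZBTB17) and 6 lower (TP73, SP1, SP3, SMAD4, EZH2 and ETS2), where 23.0% of all genes were called. MYC, which represses CDKN1A and CDKN2B with ZBTB17, was at 0.55 on the log2 scale, without a call (edgeR adjusted p = 0.0655).

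With each library left out in turn, CCNE2 was called in 6 of 6 fits, CCND1 and E2F1 in 5, RBL1 in 4, DTL and E2F2 in 3, and SMAD3 in 1, the fit without NT library 1. The 7 calls over the lists became 10 without NT library 1, 3 without OXA library 2 and 1 without OXA library 1, and DESeq2 called 14. Over all genes, the 696 calls likewise became 1194 without NT library 1, 126 without OXA library 2 and 85 without OXA library 1. DESeq2 called 1268 of all genes. With 1 library left out, the highest adjusted p by edgeR was 0.0566 for CCND1, 0.0584 for E2F1, 0.0608 for DTL and 0.125 for SMAD3.

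**Figure D4:**
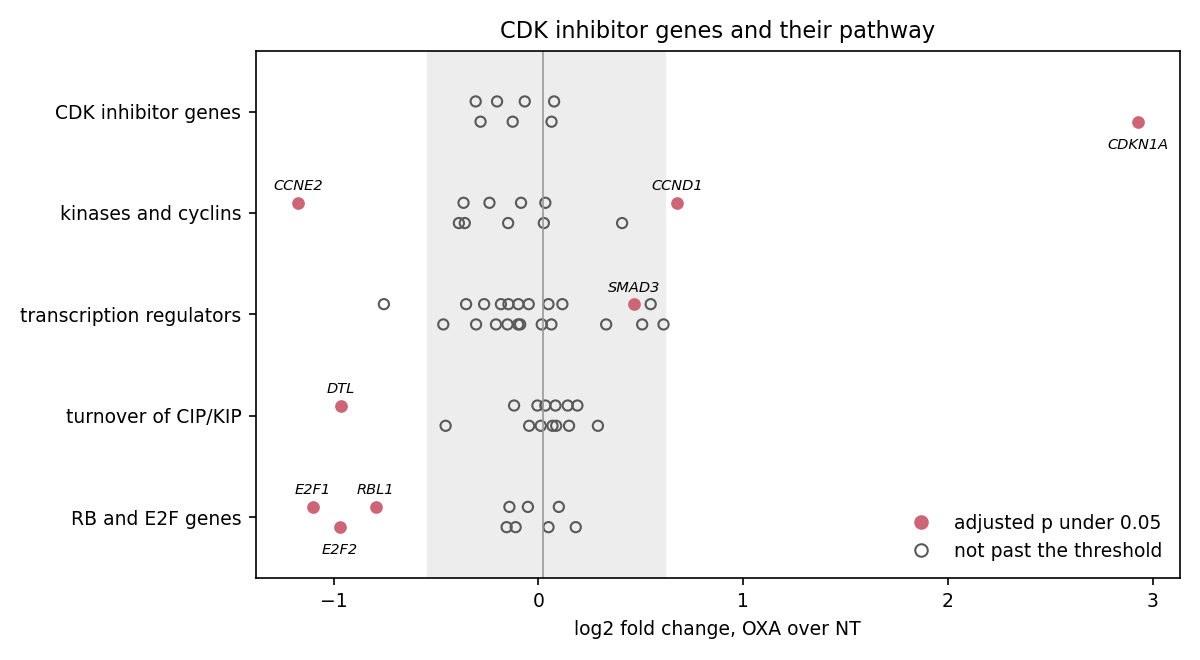
Log2 fold change (OXA over NT) of the 8 genes and of each tested gene of the lists of partners, E2F and pocket proteins, turnover factors and regulators, with calls marked. The grey band holds the middle of all genes tested, from -0.54 at percentile 5 to 0.62 at percentile 95, and most genes of the lists lie within it, with CCNE2 at -1.17 and E2F1 at -1.10 as the lowest points.

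Parts of 3 members share sequence with genes on the opposite strand, none of which was in the count table. Of the words of 100 bases, the read length, in its annotated transcripts, CDKN2C shared 17.8% with an unnamed antisense gene, CDKN2A shared 9.34% with CDKN2B-AS1, and CDKN1A shared 1.62% with DINOL. The libraries were stranded, but the strand setting of the counting is not given in the sources used here, so reads of these stretches may belong to either gene. CDKN2A and CDKN2B shared no such word with each other, nor did the other 5 members with any gene.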

How the data were processed

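Per the submitters' notes, reads were processed with Trimmomatic 0.32, STAR 2.7.5b, RSEM 1.3.3 and DESeq2 on GRCh38. The gene annotation and strand setting of the counting are not given in the sources used here. The authors deposited a raw count, a whole number, and a normalized signal for each gene and library. The raw counts were used as deposited, and the authors' normalized signal only in an alternative. In R 4.3.3, filterByExpr (at least 10 counts, total of at least 15) kept 13727 of 27942 genes. TMM normalization and the quasi-likelihood test came from edgeR 4.0.16, and alternatives used limma 3.58.1 and DESeq2 1.42.0. P-values were adjusted by Benjamini-Hochberg across the genes tested, and standard errors were derived from the estimate and its F statistic. The unpaired edgeR fit was tested on simulated counts, in which same-numbered libraries shared no deviation. The block and the other alternatives were not tested in this way. All intervals are 95% intervals of the fit, and counting error alone would be smaller.

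An NT and an OXA library with the same number shared their deviations from the group means (correlations 0.55, 0.54 and 0.31 across genes, between -0.47 and 0.090 for different numbers). The numbers in the labels were therefore used to pair the libraries in the block fit and in the ratios of same-numbered pairs, although no source says what they stand for. The main fit was unpaired. Exon lengths came from GENCODE 44 and promoter windows from RefSeq (GRCh38.p14). The genes and lists were chosen with earlier results of these data known. All 8 members were named, with called genes of each list, genes of counts of 5 or fewer, and the 3 genes most like each called member. Some genes that these rules select are left out. Alternatives were DESeq2's size factors, no filter, DESeq2, the replicate block, limma on log2 of the authors' values plus 1, each library left out in turn, and the longest transcript as length.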

Additional observations from a re-analysis of the deposited data

How the results depend on the processing

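The call of CDKN1A was the same under all 11 alternatives, with a log2 fold change between 2.80 and 3.03 over the fits that left out 1 library. The count of called members, 1, changed only with the replicate block, which called 2 by adding CDKN1B (-0.31, edgeR adjusted p = 0.0319). The block changed no other member's call. Over all genes, the 696 calls became 1268 with DESeq2, 3157 with the replicate block and 423 with limma on the authors' values, and ranged from 85 to 1194 when 1 library was left out. Over the lists, the 7 calls became 14 with DESeq2 and 24 with the replicate block, and ranged from 1 to 10 when 1 library was left out. When 1 library was left out, uncalled estimates turned sign, ranging from -0.15 to 0.028 for CDKN2A, from -0.14 to 0.21 for CDKN2B, from -0.28 to 0.013 for CDKN2C and from -0.096 to 0.23 for CDKN2D. CDKN2A turned to 0.028 without OXA library 3, CDKN2B to -0.036 without NT library 1 and -0.14 without OXA library 3, CDKN2C to 0.013 without NT library 2 and 0.0033 without OXA library 1, and CDKN2D to -0.096 without NT library 1. With the longest transcript as length, levels per kilobase in NT and OXA were 63.0 and 479 for CDKN1A, 18.8 and 18.0 for CDKN2A, 6.67 and 5.39 for CDKN1B, and 38.4 and 31.6 for CDKN3. The cause was not tested for any of these. Changes of the INK4 genes that lie inside their 95% intervals are not excluded.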
